A study of Homo sapiens with 3 samples.

Results

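The regions described here are the H3K27ac and H3K4me1 regions of the LNCaP prostate cancer line that lie at the ends of the autosomes. A region belonged to this set when it lay wholly within 2 Mb of the outermost region found on its chromosome in either list. For chromosomes 13, 14, 15, 21 and 22, whose short arms consist mainly of repeated sequence, only the long-arm end was used. This gave 39 end windows, 17 on short arms (p) and 22 on long arms (q), which together spanned 78 Mb or 2.79% of the autosome spans. They held 2570 of the 71078 deposited H3K27ac regions and 9798 of the 200813 deposited H3K4me1 regions. Of the autosomal regions alone, these were 3.72% for H3K27ac and 4.96% for H3K4me1. The comparison set was the rest of the same 22 autosomes, with 66590 H3K27ac and 187902 H3K4me1 regions.

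The samples were ChIP-seq of each mark in LNCaP cells, 1 library per mark. The input chromatin was not used here. LNCaP was derived from a metastatic prostate carcinoma and carries a rearranged karyotype, so an end of a reference chromosome need not be a physical end in these cells. The labels state no treatment or genotype beyond the cell line, and the identity of the line could not be checked because the lists carry no gene values. With 1 library per mark no test between ends and rest was possible. Intervals given for shares are exact Clopper-Pearson 95% intervals over regions and cover counting error only, and neighbouring regions are not independent. No read counts accompany the regions. The depth is therefore unknown, and a position without a region cannot be read as free of the mark.

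H3K4me1, monomethylation of lysine 4 of histone H3, marks enhancers whether they are active or only primed, and is placed by enzymes of the KMT2 family. H3K27ac, acetylation of lysine 27 placed by p300 and CBP, marks enhancers and promoters in use. The far ends of human chromosomes consist of telomere repeats, followed inward by blocks of sequence duplicated between chromosomes and then, on many arms, by some of the most gene-rich and GC-rich sequence of the genome. Other arms end in gene-poor stretches or in clusters of a single gene family.

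Both marks were denser at the ends than in the rest of the autosomes, and H3K4me1 more so than H3K27ac. H3K27ac regions covered 77.2 kb per Mb of end window against 49.3 kb per Mb of the rest, a 1.56-fold difference. H3K4me1 regions covered 219 kb per Mb against 99.99 kb per Mb, a 2.19-fold difference. The ends held 32.9 H3K27ac regions per Mb against 24.5, and 126 H3K4me1 regions per Mb against 69.2. By number the folds were smaller than by length, 1.34 for H3K27ac and 1.82 for H3K4me1. Short-arm and long-arm ends were alike when pooled. H3K27ac covered 75.7 kb per Mb in the 17 p ends and 78.4 in the 22 q ends, and H3K4me1 covered 216 and 220 kb per Mb.

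The excess was seen at most ends but not at all of them. H3K27ac density was above that of the rest of the same chromosome in 30 of 39 ends, against 45.3% of the 1347 windows of 2 Mb that tile the rest of the autosomes. H3K4me1 density was above it in 35 of 39 ends, against 43.5% of those windows. A density of at least 2 times the rest of the chromosome was found for H3K27ac in 10 ends, against 7.72% of the inner windows, and for H3K4me1 in 21 ends, against 8.91%. The median end had 1.42 times the H3K27ac density of the rest of its chromosome (range 0.24 to 3.61) and 2.09 times the H3K4me1 density (0.23 to 4.93). The median inner window stood at 0.911 and 0.880 times. In 10 ends, namely 2q, 4p, 7p, 8q, 9q, 10q, 16p, 17q, 19p and 20q, H3K4me1 was denser than in any inner window of the same chromosome. For H3K27ac this held only for 17q and 19p, on chromosomes with 38 and 27 inner windows. The inner windows give no measured background for this rank, since by construction 1 of them is the densest on each of the 22 autosomes. The number of inner windows ran from 16 on chromosome 22 to 122 on chromosome 1, so this rank is not alike across ends. Across the 39 ends the folds of the marks went together (Spearman's rho 0.81). This is a description over windows that share the same pair of libraries and lie partly on the same chromosomes, and the inner windows gave 0.90.

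**Figure D1:**
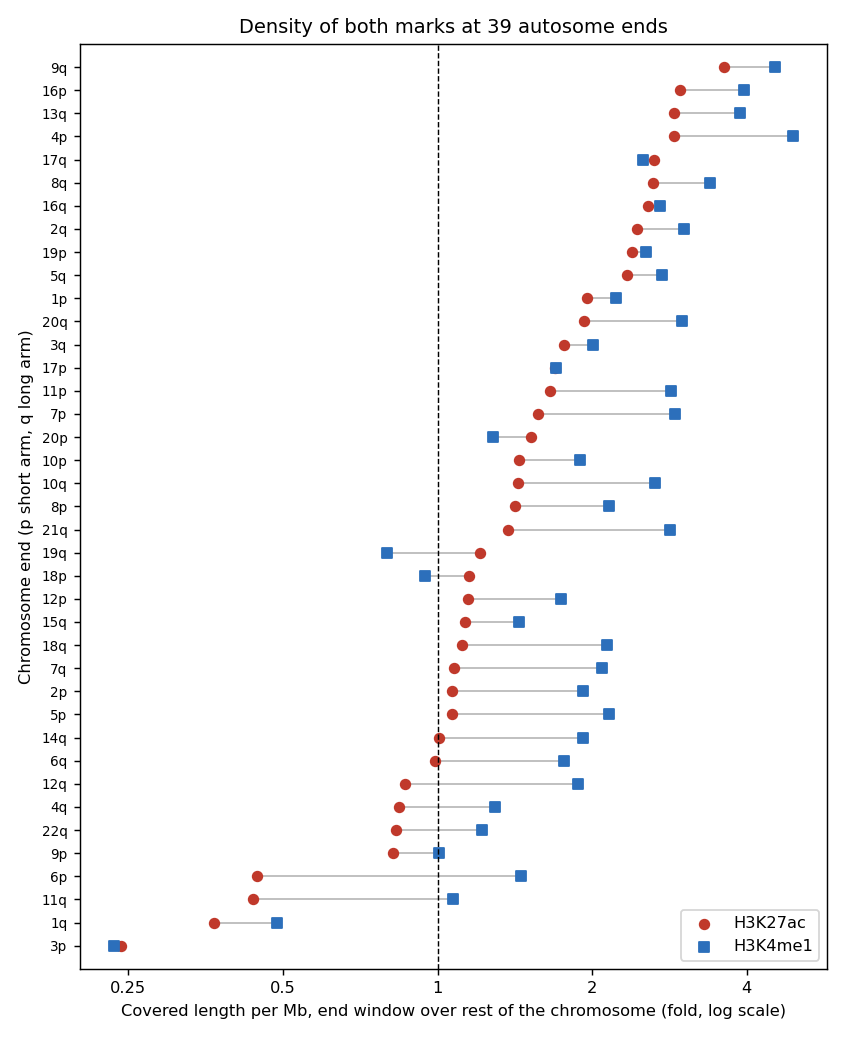
Density of H3K27ac (red circles) and H3K4me1 (blue squares) in each of the 39 end windows, as the fold over the rest of the same chromosome on a log axis; the dashed line marks equal density and ends are ordered by H3K27ac. H3K4me1 lies to the right of H3K27ac at 34 ends, and 3p and 1q lie far below 1 for both marks.

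The end of the long arm of chromosome 9, from 139087601 to 141087600, had the greatest H3K27ac excess. Its 100 H3K27ac regions covered 143 kb per Mb against 39.6 kb per Mb in the rest of chromosome 9, or 3.61-fold, and its 353 H3K4me1 regions covered 395 kb per Mb against 87.2, or 4.54-fold. The outermost coding genes there in RefSeq's gene order are CACNA1B, which encodes a neuronal calcium channel, and EHMT1, which encodes a histone methyltransferase. The short-arm end of chromosome 16, from 62201 to 2062200, followed, with H3K27ac over 138 kb per Mb (2.97-fold) and H3K4me1 over 399.9 kb per Mb (3.95-fold). This end carries the alpha-globin genes, which serve red blood cells. The long-arm end of chromosome 13 had 73.7 kb per Mb in H3K27ac regions (2.89-fold) and 151 in H3K4me1 regions (3.87-fold), on a chromosome whose rest had only 25.5 and 39.1 kb per Mb. The short-arm end of chromosome 4 had 111 kb per Mb in H3K27ac regions (2.88-fold) and 275 in H3K4me1 regions, and its 4.93-fold H3K4me1 excess was the greatest of the 39. The fifth in H3K27ac was 17q with 2.65-fold, and the fifth in H3K4me1 was 8q with 3.39-fold. In absolute terms 17q was the densest end for both marks, where H3K27ac covered 191 kb per Mb and H3K4me1 438, on a chromosome whose rest was dense too (72.2 and 175 kb). All of these ends were higher for both marks than the rest of their chromosome.

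The sparsest end was the short-arm end of chromosome 3, from 75101 to 2075100. It held 16 H3K27ac and 40 H3K4me1 regions, covering 11.825 and 21.95 kb per Mb, which was 0.24 and 0.23 times the rest of that chromosome. This end is known for long neural adhesion genes such as CHL1 and the contactin genes. The long-arm end of chromosome 1, from 247240851 to 249240850, had 23.5 kb per Mb in H3K27ac regions (0.37 times the rest) and 70.3 in H3K4me1 regions (0.49 times). Of the 20 outermost coding genes of 1q in RefSeq's gene order, 15 encode olfactory receptors, the odour sensors of the nose. The ends 11q (0.44), 6p (0.44) and 9p (0.82) completed the 5 lowest for H3K27ac, and in these 3 H3K4me1 was not below the rest, at 1.07, 1.46 and 1.01 times. For H3K4me1 the lowest after 3p and 1q were 19q (0.80), 18p (0.95) and 9p (1.01). Of these, 19q and 18p had more H3K27ac than the rest of their chromosomes, 1.21 and 1.15 times. Among the 20 outermost coding genes of 19q, 10 have symbols beginning with ZNF or ZSCAN, names of zinc finger proteins, a large family of DNA-binding proteins of which many act as repressors. MZF1 and ZBTB45, zinc finger genes named otherwise, are also among the 20. Genes were put in order at long-arm ends only. Among these the next highest counts of ZNF symbols were 7 of 20 at 12q and 6 of 20 at 8q. There H3K4me1 was above the rest, at 1.88 and 3.39 times. RefSeq's order is that of GRCh38 and the lists are of hg19, so no region was assigned to a gene.

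The ends of a single chromosome often differed. Among the 17 chromosomes with both ends, the long-arm end was the denser in 8 for H3K27ac and in 11 for H3K4me1, and the ends differed more than 2-fold in 8 chromosomes for each mark. Pairs of inner windows were not counted in this way, so such differences cannot be called particular to ends. The folds of the inner windows also spread widely, with quartiles of 0.466 and 1.40 for H3K27ac and 0.430 and 1.40 for H3K4me1. On chromosome 3 the long-arm end had 7.32 times the H3K27ac and 8.57 times the H3K4me1 of the short-arm end. On chromosome 1 the order was the opposite, with 0.19 and 0.22 times. On chromosome 10 H3K27ac was the same at both ends, 74.0 and 73.8 kb per Mb, while H3K4me1 was 213 kb per Mb at the short-arm end and 298 kb at the long-arm end.

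The excess changed with distance from the end. In the outermost 250 kb H3K27ac stood at 1.44 times and H3K4me1 at 1.69 times the rest. Both were highest from 500 to 750 kb, where H3K27ac covered 92.7 kb per Mb (1.88 times) and H3K4me1 253 (2.53 times). H3K27ac had come down to 1.14 times by the last bin of the window, from 1750 to 2000 kb, and to 1.01 times at 2250 to 2500 kb. H3K4me1 was still at 2.03 and 1.67 times in those bins. Farther in neither mark fell steadily. H3K27ac stood at 1.28 times from 2750 to 3000 kb and at 1.33 times from 4500 to 4750 kb, where H3K4me1 stood at 1.87 and 1.71 times. Both were lowest from 5750 to 6000 kb, at 0.662 and 0.988 times, and from 9750 to 10000 kb they were at 1.19 and 1.34 times. The single ends spread widely around these means. From 500 to 750 kb the H3K4me1 values ran from 2.60 to 642 kb per Mb over the 39 ends with a median of 224, and H3K27ac ran from 0 in 1 end to 388 kb with a median of 70.0.

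**Figure D2:**
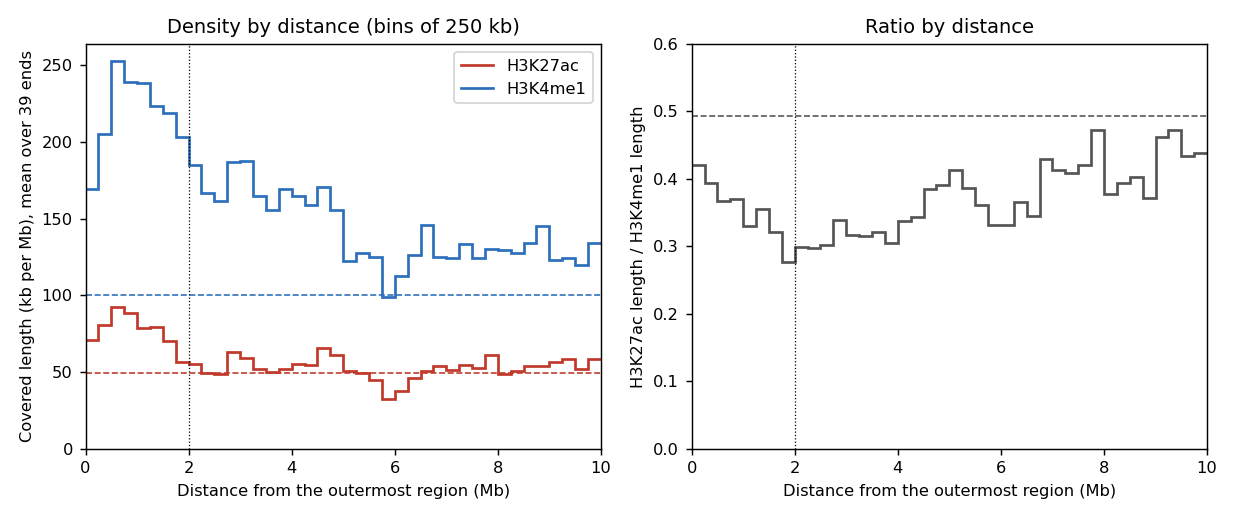
Left, covered length per Mb in bins of 250 kb from the outermost region inward, as the mean over 39 ends, for H3K27ac (red) and H3K4me1 (blue), with dashed lines at the values of the rest; right, the ratio of H3K27ac to H3K4me1 length, with the rest dashed at 0.494. The dotted line marks the 2 Mb limit. Both densities peak between 500 and 750 kb, H3K27ac nears its dashed line just past 2 Mb and rises above it again farther in, both marks dip between 5750 and 6000 kb, and the ratio is lowest around 2 Mb.

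The balance of the marks was shifted toward H3K4me1. H3K27ac length divided by H3K4me1 length came to 0.353 at the ends and 0.494 in the rest, and it was below that of the rest of the chromosome in 34 of 39 ends, against 48.1% of the 1317 inner windows with H3K4me1. The median end had 0.746 times the ratio of its chromosome. The lowest ratios were at 6p (0.183), 11q (0.196) and 7q (0.239), and the highest at 18p (0.822), 19q (0.654) and 3p (0.539). The ends whose ratio was not below the rest were 3p, 17q, 18p, 19q and 20p. The ratio was 0.421 in the outermost 250 kb and 0.277 from 1750 to 2000 kb, so the shift was strongest toward the inner side of the window. It went on beyond the window. The 8 Mb inward of each end window had a ratio of 0.370, close to that of the ends, while their densities of H3K27ac and H3K4me1 were lower, the ends standing at 1.47 and 1.53 times. Against this neighbouring sequence the ratio of the ends was 0.956 times as high. From 2000 to 3000 kb and from 3000 to 4000 kb the ratio was 0.310 and 0.314, lower than in the end windows.

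Split by what each base carried, the ends had more sequence with both marks and with H3K4me1 only, and less with H3K27ac only. Length with both marks was 67.9 kb per Mb at the ends and 35.3 in the rest (1.92-fold). Length with H3K4me1 only was 151 and 64.7 kb per Mb (2.33-fold). Length with H3K27ac only was 9.36 and 14.02 kb per Mb (0.667-fold). H3K27ac-only length was above the rest of the chromosome in 9 of 39 ends, against 43.0% of the inner windows. Length with both marks was above it in 32 ends (43.1% of inner windows) and length with H3K4me1 only in 35 (42.2%). H3K4me1-only length was lowest at 3p, with 16.25 kb per Mb, and highest at 20q, with 283 kb.

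**Figure D3:**
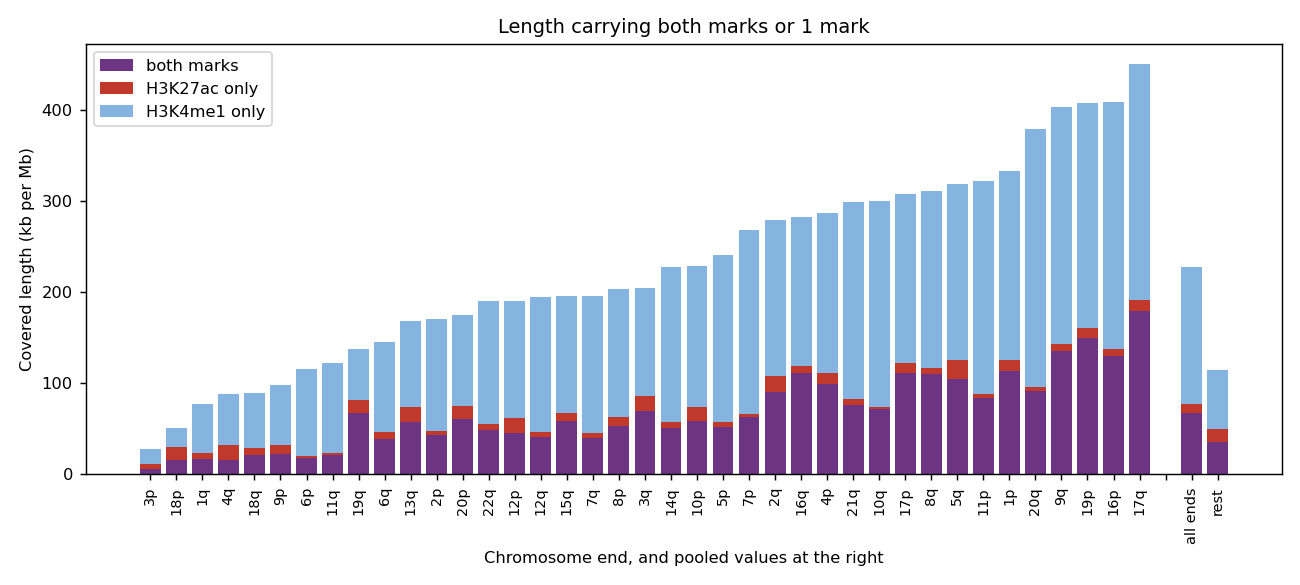
Covered length per Mb in each end window, split into both marks (purple), H3K27ac only (red) and H3K4me1 only (light blue), ordered by total, with the pooled ends and the rest at the right. All ends together carry 67.9, 9.36 and 151 kb per Mb of these classes, and the rest 35.3, 14.02 and 64.7.

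Overlap between the lists was displaced in opposite directions. Of the 2570 H3K27ac regions at the ends, 2416 shared 1 bp or more with an H3K4me1 region, or 94.0% (interval 93.0% to 94.9%), against 83.2% (83.0% to 83.5%) in the rest. Of the 9798 H3K4me1 regions at the ends, 2641 overlapped H3K27ac, or 26.95% (26.1% to 27.8%), against 34.7% (34.5% to 34.9%) in the rest. The H3K27ac share was above that of the rest of the chromosome in 34 of 39 ends (49.4% of 1315 inner windows), and the H3K4me1 share was below it in 30 of 39 (52.4% of 1317). Both held together in 26 ends, against 26.9% of the inner windows. By length, H3K4me1 regions covered 87.9% of the H3K27ac length at the ends and 71.6% in the rest, and H3K27ac covered 31.0% and 35.3% of the H3K4me1 length. Compared with the 8 Mb inward, where the shares were 91.6% for H3K27ac and 27.5% for H3K4me1, the ends differed by 2.46 and -0.585 percentage points. From 2000 to 3000 kb the shares were 93.9% and 24.1%, and from 3000 to 4000 kb 93.8% and 24.1%. The H3K4me1 share was thus lower just inward of the windows than within them. In the outermost 250 kb it was 32.2% (29.4% to 35.1%), an interval that holds the 34.7% of the rest. The shifts in overlap were therefore not particular to the end windows.

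At 6 ends, which were 6p, 10q, 11q, 16q, 20q and 21q, every H3K27ac region overlapped H3K4me1, 341 regions in all. Of these, 6p and 11q held only 25 and 24 H3K27ac regions. Full overlap was not particular to ends. Over the 1315 inner windows the share had an upper quartile of 90.9% and a maximum of 100%, and windows at 100% were not counted. The lowest shares were at 4q with 62.5% (35 of 56 regions, interval 48.5% to 75.1%), 1q with 74.1% (20 of 27, 53.7% to 88.9%) and 9p with 74.4% (32 of 43, 58.8% to 86.5%). The end of 4q thus held 21 of the 154 H3K27ac regions without H3K4me1, and 20 of the 21 lay within 1000 kb of the end. The outermost coding genes of 4q in RefSeq's order are DUX4, FRG2 and FRG1. DUX4 encodes an early embryonic transcription factor that lies in a repeat array. Regions with H3K27ac alone were rarer at the ends, 1.97 per Mb against 4.11, and lay nearer to H3K4me1. Their median distance to the nearest H3K4me1 region was 1500 bp against 3750 bp in the rest, and 23 of 154 (14.9%) lay more than 10 kb away against 26.4% in the rest.

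**Figure D4:**
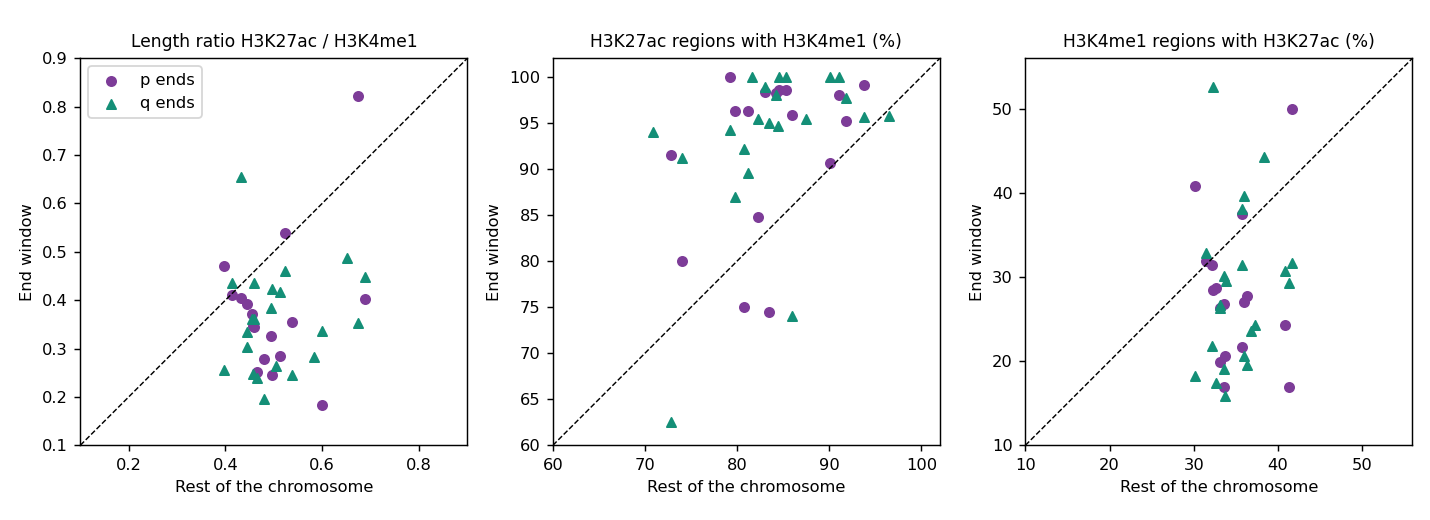
Each end (purple circles, p; green triangles, q) plotted by its value against that of the rest of its chromosome, for the length ratio, the share of H3K27ac regions with H3K4me1 and the share of H3K4me1 regions with H3K27ac; the dashed diagonals mark equal values. In the left panel 34 of 39 ends lie below the diagonal, in the middle panel 34 above it and in the right panel 30 below it.

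Width is tied to overlap, since a wide region meets the other mark more readily, so shares were also compared within classes of width. The median width of H3K27ac regions was 1850 bp at the ends (quartiles 1100 and 2900 bp) and 1600 bp in the rest (1050 and 2400 bp). That of H3K4me1 regions was 1050 bp in both, with an upper quartile of 2000 bp at the ends and 1650 bp in the rest. Regions of 4 kb or more were 2.29 times as frequent per Mb at the ends for H3K27ac and 3.42 times for H3K4me1, while regions under 1 kb were 1.08 and 1.69 times as frequent. Among H3K27ac regions under 1 kb, 81.5% (77.6% to 84.9%, 453 regions) overlapped H3K4me1 at the ends against 62.9% (62.1% to 63.6%) in the rest. At 1 to 2 kb the shares were 93.4% and 83.0%, and at 2 to 4 kb 99.1% of the end regions overlapped, 4.05 percentage points more than in the rest. At 4 kb or more nearly all H3K27ac regions overlapped H3K4me1 in both sets, 336 of 336 at the ends (98.9% to 100%) and 99.0% (98.7% to 99.3%) in the rest, and the intervals overlapped.

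H3K4me1 showed the reverse in the narrow and middle classes. Under 1 kb, 5.01% of H3K4me1 regions at the ends (4.36% to 5.72%, 4094 regions) overlapped H3K27ac against 12.6% (12.4% to 12.8%) in the rest. At 1 to 2 kb the shares were 22.8% (21.4% to 24.3%) and 40.0% (39.7% to 40.4%), and at 2 to 4 kb 58.1% (55.7% to 60.4%) and 73.0% (72.5% to 73.6%). At 4 kb or more the intervals overlapped, with 92.6% (90.6% to 94.4%) at the ends and 93.6% (93.1% to 94.2%) in the rest. Weighted to the widths of the rest, the end shares were 92.9% for H3K27ac and 22.8% for H3K4me1. The H3K4me1 regions without H3K27ac at the ends were 7157 in number, 91.8 per Mb against 45.2 in the rest, with a median width of 950 bp against 900 bp. Those with H3K27ac had a median of 2600 bp against 1650 bp.

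**Figure D5:**
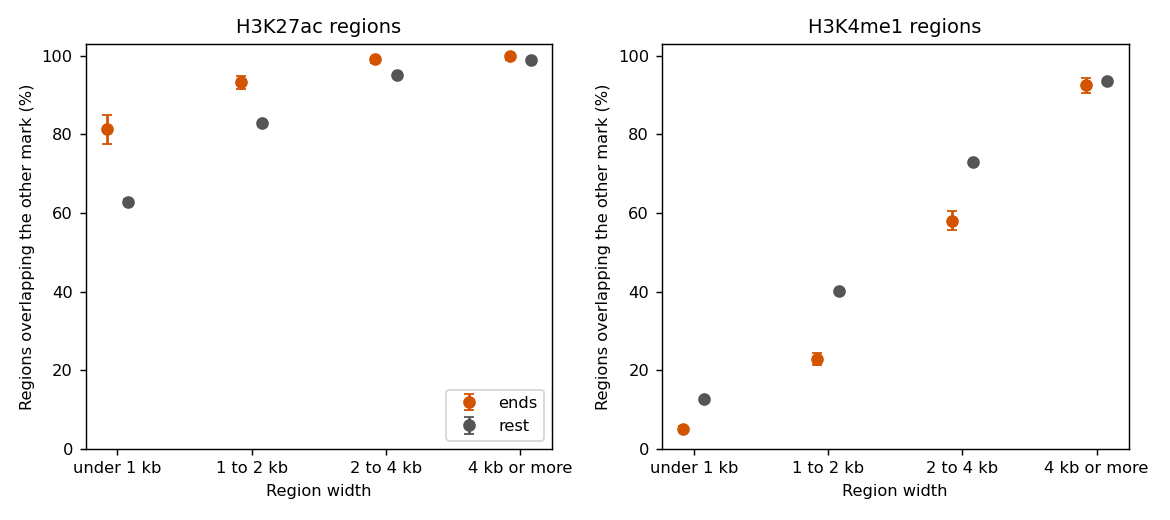
Share of H3K27ac regions (left) and H3K4me1 regions (right) that overlap the other mark, by width class, at the ends (orange) and in the rest (grey), with exact 95% intervals over regions. At the ends H3K27ac shares are higher, most so under 1 kb (81.5% against 62.9%), and H3K4me1 shares are lower up to 4 kb (22.8% against 40.0% at 1 to 2 kb).

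Ratio and overlap also vary with how much of a window is covered, and the ends were mostly well-covered windows. When the inner windows holding a region were put in order of their length under either mark and divided into 5 classes of nearly equal size, 26 of 39 ends fell into the densest class. In that class the ratio was 0.346 at the ends and 0.452 in the 264 inner windows. The H3K27ac share was 95.8% (94.9% to 96.7%) at the ends and 90.6% (90.2% to 90.9%) in the inner windows, and the H3K4me1 share 25.998% (25.03% to 26.98%) and 33.7% (33.3% to 34.0%). These intervals are over pooled regions and do not measure the spread between ends. The 5 ends of the next class were 2p, 6q, 13q, 19q and 20p. Their pooled H3K27ac share was 94.0% (90.8% to 96.3%) against 86.2% (85.7% to 86.7%) in inner windows, and single ends ran from 90.7% to 96.2%. Their pooled H3K4me1 share was 36.5% (33.4% to 39.6%) against 36.6% in the inner windows, but single ends ran from 21.7% at 2p to 52.5% at 19q. In the middle class, the 5 ends 4q, 6p, 9p, 11q and 18q had a pooled H3K27ac share of 80.8% (74.3% to 86.2%). The inner windows had 80.8% (80.1% to 81.5%), but the 5 ends ran from 62.5% at 4q to 100% at 6p and 11q. The pooled H3K4me1 shares were 23.1% (20.1% to 26.4%) and 36.5% (35.99% to 36.997%). For this share the 5 ends ran from 15.8% at 11q to 31.6% at 18q. The sparsest classes held only 1q and 18p, with an H3K27ac share of 77.2% (64.2% to 87.3%) against 71.9%, and 3p, with 12 of 16 regions (47.6% to 92.7%) against 59.2%. Their H3K4me1 shares were 31.3% (24.6% to 38.6%) and 37.5% (22.7% to 54.2%), against 34.9% and 27.5% in the inner windows.

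The authors' score, an unnamed value per region, took its lowest values more often at the ends. The lowest H3K27ac score, 0.001, was carried by 22.2% (20.6% to 23.8%) of the end regions and 14.2% (13.9% to 14.4%) of the rest. For H3K4me1, 31.4% (30.5% to 32.3%) of the end regions had a score up to 0.003, against 27.7% (27.5% to 27.9%). The 5 widest H3K27ac regions of the ends all carried 0.001, and the 5 widest H3K4me1 regions 0.003. Scores were not compared within classes of width. Among regions with scores up to the list median, the H3K27ac shares differed by 10.7 percentage points, 95.6% at the ends and 84.96% in the rest. The H3K4me1 shares there differed by -3.70 points, 37.3% and 41.0%, less than the -7.74 points of the whole list.

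The widest single regions of the ends were long blocks with both marks. For H3K27ac they lay in hg19 at chr4:1144151-1172150 with 28000 bp, 89.6% of it in H3K4me1 regions, chr17:80052501-80073600 with 21.1 kb (94.5%), chr19:2038801-2054850 with 16.1 kb (98.8%), chr5:180224501-180240350 with 15.9 kb (96.2%) and chr19:1404851-1419100 with 14.25 kb (95.4%). The widest H3K4me1 regions were less fully shared. They lay at chr14:105928201-105964850 with 36.65 kb, 54.2% of it in H3K27ac regions, chr1:845151-871550 with 26.4 kb (26.3%), chr8:145731001-145755800 with 24.8 kb (81.9%), chr16:88817251-88841800 with 24.6 kb (67.6%) and chr17:80830901-80853650 with 22.8 kb (70.8%). The widest end regions with a single mark were shorter for H3K27ac than for H3K4me1, out of 154 and 7157 such regions. The median width of such regions was 950 bp for either mark. In the rest the order was the opposite, with maxima of 10700 bp for H3K27ac alone and 9150 bp for H3K4me1 alone. H3K27ac alone reached 2.85 kb at chr8:355751-358600, 2.35 kb at chr9:1153901-1156250 and 2.25 kb at chr4:190605501-190607750. H3K4me1 alone reached 9.85 kb at chr19:1465151-1475000, 8.95 kb at chr4:1019801-1028750 and 8.10 kb at chr9:140328701-140336800.

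Long runs of acetylation were found by joining H3K27ac regions at most 12500 bp apart, without removing promoters. The 2570 regions formed 1215 clusters, and 73.3% of the regions lay in clusters of several, against 68.8% in the rest. Clusters covering more than 20 kb numbered 45, spread over 23 ends, which was 57.7 per 100 Mb against 23.6 in the rest. The longest lay at chr16:89365701-89576650, where 33 regions covered 108 kb and H3K4me1 covered 96.0% of that length. It was followed by chr2:242208801-242324600 (18 regions, 60.4 kb, 81.9%), chr4:1143301-1216550 (10 regions, 48.05 kb, 87.9%), chr5:180585951-180692100 (16 regions, 46.9 kb, 84.0%) and chr9:140062301-140166150 (12 regions, 46.7 kb, 97.2%). The longest cluster in the rest of the autosomes covered 311 kb, longer than any at the ends.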

How the data were processed

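The 2 deposited lists, 1 per ChIP library of LNCaP, give chromosome, start, end and a score per region, without header. Per the labels' protocols, sonicated crosslinked chromatin was sequenced as 50 bp single-end reads. Per the submitters' processing notes, Bowtie 0.12.8 and the hg19 build were used. How regions were called, at which threshold and against which control is not given in the sources used here. Each region's score is the authors' deposited value. It served to filter regions and to compare ends with the rest, always within a list.

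Coordinates are hg19, counted from 1. A region crossing the 2 Mb limit (3 H3K27ac and 6 H3K4me1 regions) counted with the rest. Inner windows of 2 Mb were tiled from the end windows inward, and only regions wholly inside counted. Ends were named by rule: the 5 highest and 5 lowest folds per mark, the 3 highest and 3 lowest ratios and H3K27ac shares (6 tied at the top), the 5 widest regions, the 3 widest regions without the other mark, and the 5 longest clusters. Members and rules were chosen with earlier results of these data known. The computation was tested on simulated data. No sequence is printed, as no hg19 genome was used here. Copy number was not analysed. Intervals came from scipy 1.17.1, figures from matplotlib 3.10.9 and all else from pandas 2.3.3 and numpy 2.4.6 under Python 3.11.15.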

Additional observations from a re-analysis of the deposited data

How the results depend on the processing

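Of 82 alternative values other than leaving out an autosome, 70 stayed within 1.5-fold of the reported value (for shares, within the interval of the difference) and 12 moved, and none changed direction. The 1.5-fold limit is wide for results near 1. A ratio or median width could lose its whole difference and still count as having stayed. Counts of ends and the H3K4me1 median width, whose fold was 1, could not be scored as changing direction. The difference in the share of H3K27ac regions with H3K4me1 was 10.8 percentage points (95% interval by Newcombe's method 9.74 to 11.7). It was 12.6 with H3K4me1 scores under 0.05 and 17.005 where 50% or more of a region had to be shared. When standardised to the widths of the rest it was 9.65, and against the next 8 Mb inward 2.46. In 19 ends and 350 inner windows of like length under either mark, chosen after seeing the data, this difference was 5.64. Those windows were not matched for a single mark. H3K4me1 covered 217 kb per Mb in these ends and 188 in the inner windows, and H3K27ac covered 72.3 and 87.0. The difference in the share of H3K4me1 regions with H3K27ac, -7.74 points (-8.64 to -6.83), was -4.25 with end windows of 1 Mb, -9.59 with 4 Mb, -3.70 at scores up to the list median, -8.79 with H3K4me1 scores under 0.05, -6.10 after merging within 1 kb, -11.9 when standardised to widths and -0.585 against the next 8 Mb. The ratio against the next 8 Mb was 0.956-fold, which counted as having stayed although little of the difference was left. For all of these shifts the cause was not tested. Leaving out each autosome in turn gave density folds of 1.498 to 1.62 for H3K27ac and 2.12 to 2.30 for H3K4me1, ratios of 0.696 to 0.729 times the rest, and share differences of 10.4 to 11.3 and -8.32 to -7.22 points. Also added were a rest weighted by ends per chromosome (folds 1.54 and 2.11) and leaving out the outermost 250 kb (1.58 and 2.25). The H3K4me1 score filter leaves H3K27ac density and width untouched and was not counted for them. No paired analysis was possible because there are no replicates of either mark. Weak regions may be missing at a depth that is unknown.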

Other observations

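At 38 of 39 ends the outermost region was an H3K4me1 region, and at 22q it was an H3K27ac region. H3K4me1 regions were also far more numerous at the ends, 9798 against 2570. At 10q both lists ended at the same position. An H3K27ac region lay within 1 kb of that outermost position at 11 ends, within 10 kb at 18 and within 100 kb at 33. The farthest was at 3p, where the first H3K27ac region started 258 kb inward. These counts include 10q and 22q, where an H3K27ac region itself reached the outermost position. Closeness of H3K27ac to H3K4me1 regions elsewhere was not counted in this way. On 8 short arms the outermost position lay within the first 20 kb of the chromosome.

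The median gap between neighbouring H3K4me1 regions was 2400 bp at the ends and 4100 bp in the rest, and that between H3K27ac regions 10700 and 13500 bp. Stretches without a region of either mark exceeded 200 kb at 4 ends, which were chosen for their length: 448 kb at chr1:90501-538500, 381 kb at chr4:189294501-189675450, 362 kb at chr18:907051-1269150 and 256 kb at chr3:697501-953050. Such stretches were not counted in the inner windows, so they cannot be called particular to ends. Of the 1347 inner windows, 30 held no region of either mark wholly inside them. Whether the stretches hold unassembled sequence was not checked.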
